A study of Arabidopsis thaliana with 14 samples.

Results

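Untreated wild-type seedlings collected 12 h into the experiment were compared with untreated seedlings collected at 0 h, on 4 of the 14 Affymetrix ATH1 arrays of the series, 2 arrays for each group. The groups were taken from the sample titles. All seedlings were Arabidopsis thaliana Col-0, 6 days after germination. They had been stratified for 3 days at 4 °C, grown for 5 days at 22 °C on 0.5x MS agar in a cycle of 16 h light and 8 h dark, and moved for 1 day into liquid 0.5x MS medium. The 0 h seedlings were harvested before any compound went into the medium, and the 12 h seedlings were harvested 12 h later from medium without compound. The labels give neither the time of day of a harvest nor whether the lights were on, nor whether the untreated medium received a solvent. Each time zero collection pooled about 2000 whole seedlings, and the labels speak of 2 independent sets, and the p-values measure only the spread between these samples, which may be partly technical. Hour of the day, age and time in liquid medium differ together between the groups and cannot be told apart. In the other 10 arrays, 2 are of untreated seedlings at 3 h and 8 are of seedlings given 50 µM of compound 7606596 or 5929745 for 3 h or 12 h.

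A seedling that is sampled at different hours of the day changes many transcripts, because the circadian clock and the light and dark periods each set daily rhythms. Leaves make starch in the chloroplast by day and break it down to sugars at night, and genes for light harvesting, carbon fixation and starch breakdown have daily cycles of their own in Arabidopsis. Chloroplast proteins come from both the nuclear and the plastid genome, so photosystem genes are described by the genome that encodes them.

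Of 15922 probe sets kept after a filter on low signals, 5586 passed an adjusted p of 0.05 between 12 h and 0 h (limma on log2(signal + 16) with Benjamini-Hochberg adjustment), which was 35.1% of those tested. At 12 h 3161 were higher, 19.9% of those tested, and 2425 were lower, 15.2% of those tested. Among them 757 were higher and 608 were lower by at least 1 log2 unit. Over all probe sets tested, the median log2 change was 0.05. When each array was centred on its median instead, 2607 were higher and 2990 were lower, so that the higher share of the calls went from 56.6% to 46.6%. The plot of change against level shows calls at all signal levels.

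**Figure D1:**
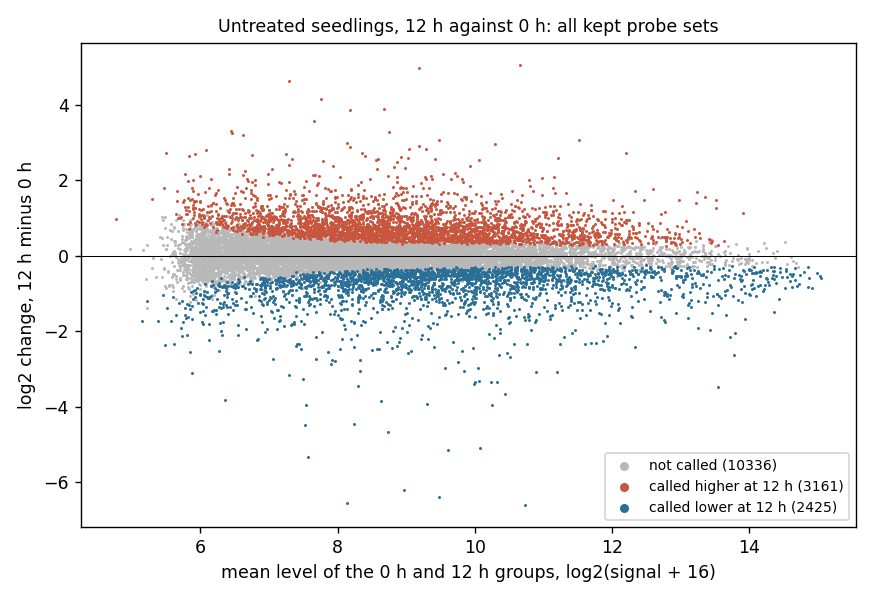
Log2 change between untreated seedlings at 12 h and 0 h against the mean level of both groups, as log2(signal + 16), for each of the 15922 probe sets. The 3161 called higher are red, the 2425 called lower are blue and the rest are grey, and calls of both directions lie at all levels.

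The control signals of the arrays also differed between the groups. The 12 probe sets for the poly-A spikes, bacterial transcripts normally added to the RNA before labelling, had a mean signal of 57.3 and 42.4 on the 0 h arrays and 133 and 130 on the 12 h arrays. On the untreated 3 h arrays it was 132 and 131, and on the 8 compound arrays it lay between 39.0 and 53.8. The 9 hybridization controls averaged 7032 and 7008 at 0 h and 4804 and 4557 at 12 h. Signal of the 25S ribosomal RNA probe set was 541 and 389 at 0 h and 206 and 184 at 12 h, and the actin 3′ to 5′ ratio was 13.1 and 11.4 at 0 h and 7.42 and 8.61 at 12 h. The GAPDH 3′ to 5′ ratio went the other way, with 1.17 and 1.17 at 0 h and 1.39 and 1.65 at 12 h. The part of these differences in the results below was not tested. Beside many of the results, though not all, stand the changes of the compound-treated 12 h arrays against the same 0 h arrays, which have alike poly-A spike levels, although these comparisons share the 0 h arrays and add a compound. The arrays of each group correlated at r = 0.987 for 0 h and r = 0.988 for 12 h across the kept probe sets, as a description of these arrays.

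A pair of comparisons shared no array with the one above. In seedlings given 7606596, 14% of probe sets were called higher and 12.4% were called lower at 12 h against 3 h. Of the 3161 probe sets higher in untreated seedlings, 1686, or 53.3%, were among those 2233 called higher with 7606596, 75.5% of the latter, and 28 were called lower. Of the 2425 lower in untreated seedlings, 1235, or 50.9%, were among the 1982 called lower with 7606596, 62.3% of the latter, and 6 were called higher. With 5929745, 13.8% of probe sets were called higher and 11.5% lower. Of the 3161, 1580, or 50.0%, were called higher, 71.8% of those called higher with 5929745, and 42 were called lower. Of the 2425, 1172, or 48.3%, were called lower, 63.8% of those called lower with 5929745, and 22 were called higher. All 14 arrays enter one fit, which gives a shared estimate of the spread.

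Markers of green tissue and of root were read on all 4 arrays, and their detection was not tested. The summed signal of the 3 annotated light-harvesting genes, LHCB4.1, LHCB4.2 and LHCB4.3, was 60957 and 58314 at 0 h and 27234 and 24999 at 12 h. For the root genes PYK10, EXPA7 and EXPA18 the sum was 13580 and 20578 at 0 h and 15667 and 16022 at 12 h, nearly all of it from PYK10, a root and hypocotyl beta-glucosidase. EXPA18 was 24.5 and 42.3 at 12 h, not above the mean signal of 42.3 that the filter required. Fewer cells of a type and less RNA per cell cannot be told apart in such whole-seedling samples.

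The 2 measured genes of starch breakdown were called higher, where 19.9% of all probe sets were. PWD, phosphoglucan water dikinase, which phosphorylates starch before its breakdown, had signals of 476 and 376 at 0 h and 2532 and 2565 at 12 h, a log2 change of 2.55 ± 0.13 (SE, adjusted p = 3.4e-11). Its signals at 3 h were 431 and 476, close to those at 0 h. DPE1, the plastid disproportionating enzyme that acts on maltotriose during starch breakdown, went from 115 and 108 to 814 and 843, a log2 change of 2.73 ± 0.14 (SE, adjusted p = 2.5e-11). DPE1 was already at 347 and 287 at 3 h. Both genes are the 2 measured of the 14 in the starch breakdown list, and in the seedlings given 7606596 or 5929745 the 12 h arrays differed from 0 h by 2.68 and 2.63 for PWD and by 2.70 and 2.75 for DPE1 on the same log2 scale.

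In the starch synthesis list 1 of 11 genes was measured, SBE2.2, a starch branching enzyme. It fell from 2149 and 2019 to 1318 and 1204, a log2 change of -0.72 ± 0.15 (SE, adjusted p = 0.00087). SWEET2, a vacuolar sugar transporter of the SWEET family, fell from 6498 and 6025 to 2114 and 2157, by 1.54 on the log2 scale. It was the 1 of 8 measured SWEET genes that was called, where 35.1% of all probe sets were called. SWEET2 and the other family members below were named after their values were seen.

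Of 7 measured nuclear genes for light harvesting and the photosystems, 6 were called lower at 12 h, where 15.2% of all probe sets were. LHCB4.2, which encodes a minor antenna protein (CP29) of photosystem II, had signals of 28779 and 27980.5 at 0 h, 25066 and 28098 at 3 h and 6248 and 6463 at 12 h, and its log2 change from 0 h to 12 h was -2.16 ± 0.11 (SE, adjusted p = 3.1e-11), against -2.21 and -2.11 with 7606596 and 5929745. LHCB4.1, encoding another form of the same protein, went from 31958 and 30127 to 20829 and 18298, a log2 change of -0.67 ± 0.10 (SE, adjusted p = 2.9e-05), and under quantile normalization -0.16 with an adjusted p of 0.149. LHCB4.3, the third form, was not called, with signals of 219 and 206 at 0 h and 157 and 237 at 12 h. The difference between the changes of the 3 forms was not tested.

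The 4 measured nuclear photosystem genes were all called lower. Of these, PSBY and PSBW encode small subunits of photosystem II, and PSAN and PSAE-1 encode subunits of photosystem I on its lumen and stroma sides. PSBY fell from 24004 and 26974 to 12776 and 11367, by 1.08 ± 0.10 (SE) on the log2 scale, and PSAN fell from 23279 and 24034 to 11685 and 11321, by 1.04 ± 0.10 (SE). The compound-treated 12 h arrays gave -1.35 and -1.15 for PSBY and -1.14 and -1.06 for PSAN. PSBW had a log2 change of -0.78 ± 0.10 (SE, adjusted p = 7.7e-06), and PSAE-1 had one of -0.58 ± 0.12 (SE, adjusted p = 0.00084), with -0.12 and an adjusted p of 0.411 under quantile normalization. In each of these genes the lowest 0 h signal was above the highest 12 h signal.

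Calvin cycle genes were lower as well, with all 3 measured members called, where 15.2% of all probe sets were called lower. Their median log2 change of -0.80 was -0.38 under quantile normalization, with all 3 still called lower. RCA, Rubisco activase, had signals of 34073 and 36165 at 0 h and 22202 and 19938 at 12 h, a log2 change of -0.74 ± 0.10 (SE, adjusted p = 1.2e-05). PRK, phosphoribulokinase, fell from 20139.9 and 20969.9 to 12076 and 11576, by 0.80 on the log2 scale, and SBPASE, sedoheptulose-bisphosphatase, fell from 11867 and 12696 to 7207 and 6647, by 0.83. Compound-treated arrays at 12 h gave -0.86 and -0.72 for RCA, -0.73 and -0.79 for PRK, and -0.76 and -0.79 for SBPASE, in the order 7606596 and 5929745. In photorespiration, 2 of 3 genes were called lower, against the same 15.2% of all probe sets. HPR, hydroxypyruvate reductase, had a log2 change of -0.82 ± 0.12 (SE, adjusted p = 2e-05), and AT1G80380, glycerate kinase, had one of -0.42 ± 0.11 (SE, adjusted p = 0.00591), which was -0.38 and -0.37 with adjusted p of 0.0517 and 0.0605 without replicate 2 of 0 h and of 12 h respectively.

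**Figure D2:**
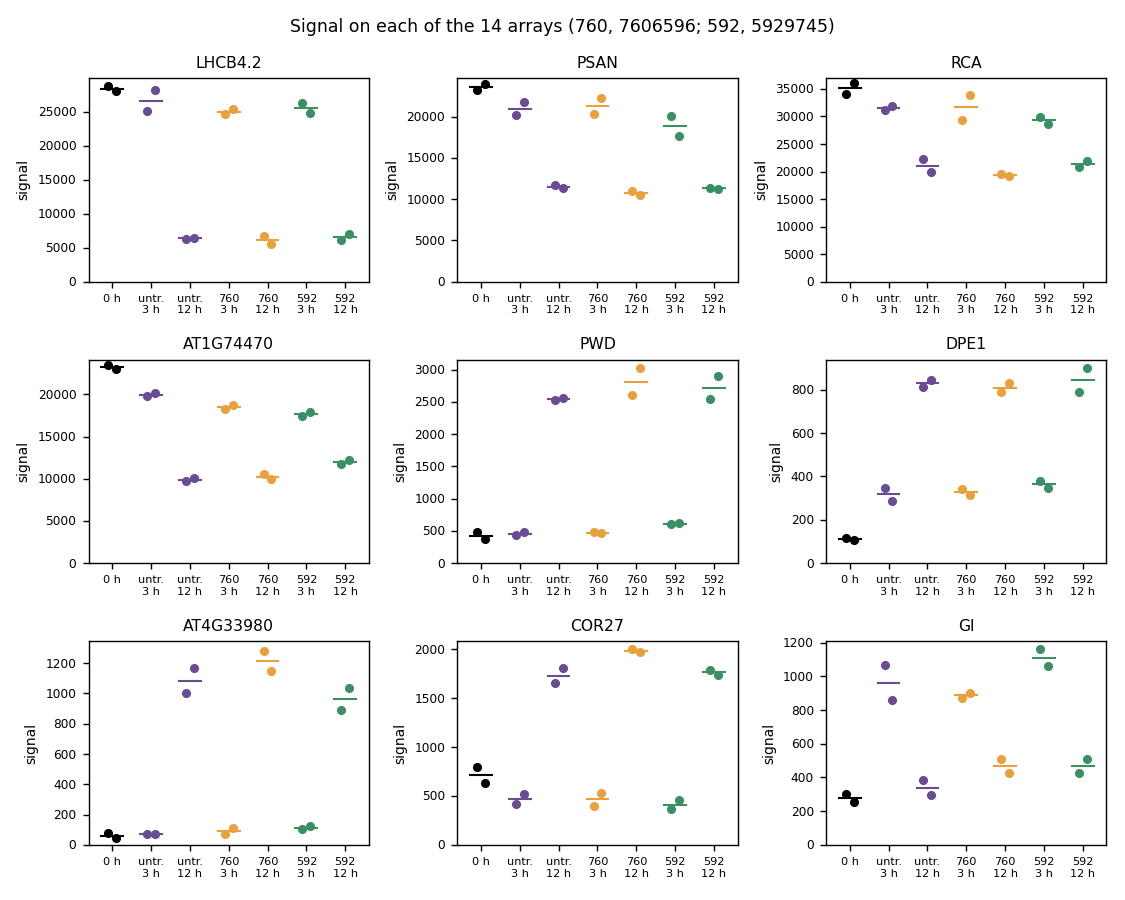
Signal (linear axis from 0) of 9 genes on each of the 14 arrays, with 2 points and a bar for the mean of each group, untreated 0 h in black, untreated 3 h and 12 h in purple, 7606596 in orange and 5929745 in green. LHCB4.2 and PWD each have the 6 arrays of 12 h apart from the other 8 arrays, LHCB4.2 below and PWD above them.

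Of 9 measured chlorophyll synthesis genes 3 were called lower and 2 higher, where 15.2% and 19.9% of all probe sets were. After median centring 5 were called lower, and without replicate 2 of 0 h or of 12 h 1 was called higher. AT1G74470, geranylgeranyl reductase, which makes the phytyl tail of chlorophyll, fell from 23434 and 22962 to 9720.0 and 10099.7, a log2 change of -1.23 ± 0.09 (SE, adjusted p = 6.3e-09), against -1.18 and -0.95 with the compounds. CHLM, magnesium protoporphyrin methyltransferase, fell from 13054 and 13972 to 7069 and 7736, by 0.87 on the log2 scale, and HEME1, uroporphyrinogen decarboxylase, fell by 0.72. PORB, a protochlorophyllide oxidoreductase, moved the other way, from 1748 and 1504 at 0 h to 3873 and 3947 at 3 h and 3663 and 3364 at 12 h, a log2 change of 1.11 ± 0.12 (SE, adjusted p = 1.1e-06), against 0.82 and 1.08. GSA1, glutamate-1-semialdehyde aminotransferase, had 1475 and 1156 at 0 h and 1699 and 2269 at 12 h, a log2 change of 0.58 ± 0.18 (SE, adjusted p = 0.0178), which was lost without replicate 2 of 0 h (0.41, adjusted p = 0.19) or of 12 h (0.38, adjusted p = 0.223). CHLI2, HEME2, HEMB1 and HEMA2 were not called. LYC, lycopene cyclase of carotenoid synthesis, fell from 2922 and 2949 to 1973 and 1782, by 0.64 on the log2 scale.

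Of 69 plastid-encoded genes measured, 39 were called lower at 12 h, 6 were called higher and 24 were not called, where 15.2% of all probe sets were called lower and 19.9% higher. Under quantile normalization, which rescales the brightest signals, 27 were called lower and 12 higher. Without 1 of the 4 arrays the lower count lay between 29 and 37 and the higher count between 3 and 9. The median log2 change was -0.46 in untreated seedlings, -0.29 with 7606596 and -0.44 with 5929745, each against the same 0 h arrays. At 3 h the untreated median was -0.36. From 3 h to 12 h in untreated seedlings, whose arrays have alike poly-A spike levels, the median change was -0.26 for photosystem II genes. It was -0.13 for photosystem I, cytochrome b6f, ATP synthase and Rubisco, -0.05 for the NDH complex and 0.07 for the gene expression list. Poly-A spike signals were higher on the untreated 3 h and 12 h arrays than on the 0 h and compound arrays, and their part in these values was not tested. Under quantile normalization the median of the photosystem II genes went from -0.29 to 0.15 and that of the plastid gene expression list from -0.11 to 0.04.

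In photosystem II, 8 of 15 plastid genes were called lower and 1 higher, where 15.2% and 19.9% of all probe sets were. Under quantile normalization 6 were lower and 3 higher. psbB, encoding the core antenna protein CP47, had signals of 13718 and 10291 at 0 h, 5083 and 5206 at 3 h and 2181 and 2209 at 12 h, a log2 change of -2.43 ± 0.12 (SE, adjusted p = 1.6e-11). The corresponding changes were -1.26 with 7606596 and -1.58 with 5929745. psbD, encoding the reaction centre protein D2, went from 6208 and 4701 to 989.8 and 1114, a log2 change of -2.35 ± 0.17 (SE, adjusted p = 5.7e-09), against -1.04 and -1.74 in the compound-treated seedlings. psbC, encoding the core antenna protein CP43, had a log2 change of -1.62 ± 0.14 (SE, adjusted p = 8.2e-08), against -0.75 and -1.42. psbH, encoding a small subunit, fell by 0.77 on the log2 scale. psbE, encoding a cytochrome b559 subunit, had a log2 change of -0.66 ± 0.12 (SE, adjusted p = 0.00022), and -0.26 with an adjusted p of 0.0717 under quantile normalization. psbA, encoding the reaction centre protein D1, was 13015 and 11279 at 0 h and 14098 and 10502 at 12 h, and these ranges overlapped. psbL was the member called higher, at 4038 and 3065 at 0 h and 5590.2 and 4891 at 12 h, with a log2 change of 0.57 ± 0.17 (SE, adjusted p = 0.0115), which was lost without replicate 2 of 0 h (0.37, adjusted p = 0.175) or replicate 1 of 12 h (0.47, adjusted p = 0.109).

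Among the plastid genes of photosystem I, cytochrome b6f, ATP synthase and Rubisco, 17 of 22 were called lower and 1 higher. Of all probe sets 15.2% were called lower and 19.9% higher. Under quantile normalization 10 of the 22 were called lower and 2 higher. ycf4, a photosystem I assembly factor, had signals of 13649 and 12700.4 at 0 h, 4823 and 4689 at 3 h and 4975 and 4239 at 12 h, a log2 change of -1.52 ± 0.12 (SE, adjusted p = 9.4e-09). The compound-treated 12 h arrays gave -0.51 and -0.77. atpH, encoding the ring subunit of ATP synthase, fell from 17981 and 14016 to 7211 and 6366, by 1.23 on the log2 scale, against changes of -0.39 and -0.37 with the compounds. psaA, encoding a reaction centre protein of photosystem I, fell by 1.19, and petA, encoding cytochrome f, fell by 1.09. cemA, encoding an envelope membrane protein, fell by 1.07. With 7606596 and 5929745 the changes were -0.64 and -0.93 for psaA, -0.40 and -0.55 for petA and -0.30 and -0.64 for cemA. From 3 h to 12 h in untreated seedlings atpH, psaA, petA and cemA changed by -0.30, -0.31, -0.36 and -0.03. rbcL, the large subunit of Rubisco, went from 5505 and 4829.5 at 0 h to 2822 and 2151 at 3 h and 2830.3 and 2668 at 12 h, by 0.90 on the log2 scale. petL, encoding a small cytochrome b6f subunit, was the member called higher, at 4195 and 2872 at 0 h and 6769.5 and 6636 at 12 h, with a log2 change of 0.95 ± 0.15 (SE, adjusted p = 5.6e-05).

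**Figure D3:**
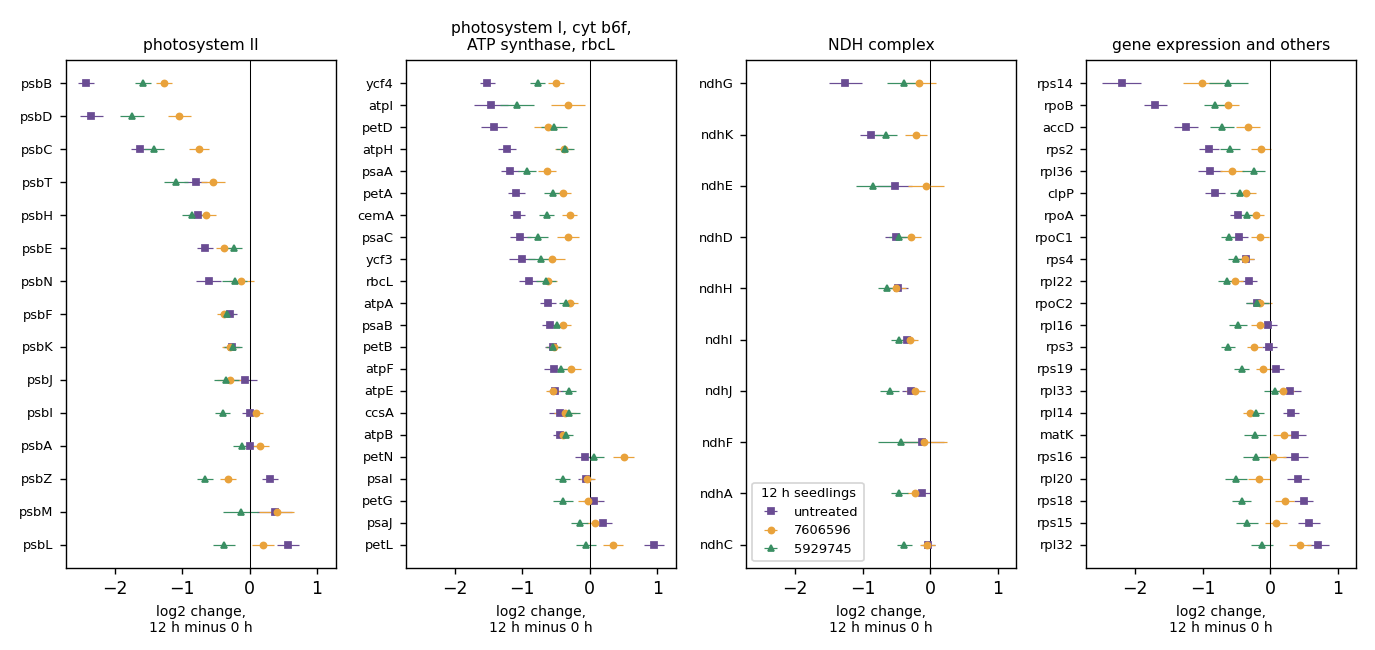
Log2 change at 12 h against untreated 0 h for the 69 plastid-encoded genes in 4 groups, in untreated (purple squares), 7606596-treated (orange circles) and 5929745-treated (green triangles) seedlings. Bars are standard errors of the fit, and psbB lies at -2.43 in untreated seedlings and at -1.26 and -1.58 with the compounds.

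The NDH complex, which carries electrons around photosystem I, had 5 of 10 plastid genes called lower and none higher. Of all probe sets 15.2% were called lower and 19.9% higher. ndhG fell from 1941 and 949.7 to 627 and 499, a log2 change of -1.26 ± 0.24 (SE, adjusted p = 0.00051), with -0.16 and -0.39 for 7606596 and 5929745. ndhK fell by 0.88 on the log2 scale, against changes of -0.21 and -0.65 with the compounds. ndhD, ndhH and ndhI had changes of -0.51, -0.48 and -0.34 and adjusted p of 0.0135, 0.0155 and 0.0319. From 3 h to 12 h in untreated seedlings ndhG and ndhK changed by -0.37 and 0.10. Over the same hours ndhD, ndhH and ndhI changed by -0.03, -0.19 and -0.14. The count of lower members was 2 without replicate 1 of 0 h or replicate 2 of 12 h and 3 under quantile normalization, and ndhI turned to 0.12 under quantile normalization.

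Plastid genes for gene expression and other functions gave 9 of 22 lower and 4 higher, where 15.2% and 19.9% of all probe sets were. Under quantile normalization 8 were lower and 7 higher. rps14, a plastid ribosomal protein, fell from 619.6 and 482 to 140.1 and 80.4, a log2 change of -2.20 ± 0.29 (SE, adjusted p = 9.6e-06), against -1.004 and -0.62 with the compounds. rpoB, a subunit of the plastid-encoded RNA polymerase, fell from 1147 and 909 to 310.3 and 295, a log2 change of -1.70 ± 0.17 (SE, adjusted p = 2.9e-07), against -0.62 and -0.82. accD, encoding a subunit of acetyl-CoA carboxylase, fell by 1.25 on the log2 scale, clpP, encoding a protease subunit, by 0.82, and rps2 by 0.91. In the same order of genes the changes were -0.33 and -0.71, -0.35 and -0.44, and -0.14 and -0.59 with 7606596 and 5929745. From 3 h to 12 h in untreated seedlings accD, clpP and rps2 changed by 0.03, -0.19 and 0.04. For rps14 and rpoB those changes were -1.02 and -0.68. rpl32 was called higher, at 4436 and 5264 at 0 h and 8067 and 7737 at 12 h, with a log2 change of 0.71 ± 0.16 (SE, adjusted p = 0.00217). The count of higher members was 2 without replicate 2 of 0 h. AT5G15700, the nuclear gene for the phage-type RNA polymerase RPOTMP, was 29.1 and 82.5 at 0 h and 120.3 and 147 at 12 h, a log2 change of 1.16 ± 0.32 (SE, adjusted p = 0.00885), which was 0.60 with an adjusted p of 0.199 without replicate 1 of 0 h and 1.03 with an adjusted p of 0.0715 without replicate 2 of 12 h.

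Mitochondrion-encoded genes showed 1 of 10 called higher and 1 called lower, where 19.9% and 15.2% of all probe sets were. ccb382, a cytochrome c assembly gene, fell from 779.7 and 567 to 289 and 201, a log2 change of -1.40 ± 0.23 (SE, adjusted p = 9.7e-05), with 129.6 and 240.4 at 3 h. With the compounds it changed by -0.78 and -0.68. ccb452, another gene of that pathway, had 236 and 264 at 0 h and 457 and 315 at 12 h, a log2 change of 0.58 ± 0.18 (SE, adjusted p = 0.019), which was not called without replicate 1 of 0 h or of 12 h.

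Nuclear ribosomal protein genes of the cytosol and of the plastid differed in the direction of their calls, where 19.9% of all probe sets were called higher and 15.2% lower. Of 35 measured cytosolic ribosomal protein genes 21 were called higher and none lower (1 lower after median centring), with a median log2 change of 0.40 against 0.05 over all probe sets. Among them AT4G39200, for a small-subunit protein of the S25 family, went from 4421 and 5221 at 0 h to 13765 and 13183 at 12 h, a log2 change of 1.48 ± 0.18 (SE, adjusted p = 3.3e-06), against 0.26 and 0.50 with the compounds. AT3G06700, for a protein of the large-subunit L29 family, went from 1106 and 1307 to 2568 and 2505, by a log2 change of 1.07 ± 0.14 (SE, adjusted p = 7.6e-06), against 0.87 and 0.99. Of the 7 measured nuclear genes for plastid ribosomal proteins none was called higher and 3 were called lower. The lower count was 1 without replicate 2 of 12 h and 2 under quantile normalization. AT3G54210, for the plastid protein L17, fell from 9891 and 11408 to 6808 and 6990.2, by 0.62 on the log2 scale. The plastid-encoded ribosomal protein genes described above had calls in both directions, such as rpl32 higher and rps14 lower.

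Histone and tubulin genes had calls mostly in the higher direction. Of 6 histone genes 4 were called higher, 2 without replicate 2 of 0 h or either replicate of 12 h, and none was called lower, where 19.9% of all probe sets were called higher and 15.2% lower. HTB2, a histone H2B gene, had 281 and 365 at 0 h and 835 and 792 at 12 h, a log2 change of 1.301 ± 0.145 (SE, adjusted p = 1.3e-06). Of 7 tubulin genes 4 were called higher and 1, TUA1, was called lower. Without replicate 1 of 0 h TUA1 had a log2 change of -0.37 with an adjusted p of 0.0569, and 3 tubulin genes were called higher. TUB9 went from 1185 and 1292 to 3015 and 3034, a log2 change of 1.28 ± 0.11 (SE, adjusted p = 8.5e-08), and TUB5 and TUA6 had changes of 1.06 and 0.80.

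The clock genes measured were few. AT4G33980, known as COR28, an evening-phased protein that acts in the clock and in cold tolerance together with COR27, had signals of 75 and 46.6 at 0 h, 69.5 and 72 at 3 h and 1005 and 1166 at 12 h. Its log2 change from 0 h to 12 h was 3.86 ± 0.20 (SE, adjusted p = 3.8e-11), and with the compounds it was 4.03 and 3.69. COR27 had 799 and 627, 416 and 524 and 1651 and 1804 at the same times, a log2 change of 1.27 ± 0.16 (SE, adjusted p = 5e-06), against 1.47 and 1.297 with the compounds. These are both measured genes of the clock output list. GI, GIGANTEA, an evening gene that links the clock to flowering, was 304 and 257 at 0 h, 1068 and 857 at 3 h and 386 and 295 at 12 h, and its log2 change from 0 h to 12 h of 0.26 ± 0.16 (SE) was not called. With 7606596 and 5929745 the 12 h arrays differed from 0 h by more, 0.70 and 0.71 ± 0.16 (SE). AT5G52660, the clock factor RVE6, was 429 and 321 at 0 h and 328 and 266 at 12 h and was not called. AT1G69570, cycling Dof factor CDF5, a transcription factor that is high in the morning and delays flowering, fell from 556 and 711 to 82.4 and 63.2, a log2 change of -2.87 ± 0.16 (SE, adjusted p = 1.3e-10), against -2.55 and -2.83 with the compounds. HYH, a bZIP factor of light signalling related to HY5, was 1044 and 1026 at 0 h, 336 and 380.0 at 3 h and 483 and 580.3 at 12 h, a log2 change of -0.95 ± 0.14 (SE, adjusted p = 3.3e-05).

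Expansin and XTH genes were lower where they were called, while 15.2% of all probe sets were called lower and 19.9% higher. Of 12 measured expansins, proteins that loosen the wall, 4 were called lower and none higher, 2 without replicate 2 of 0 h. EXPA8 had signals of 523 and 768 at 0 h, 634 and 769 at 3 h and 70.7 and 84.7 at 12 h, a log2 change of -2.80 ± 0.18 (SE, adjusted p = 9.3e-10). EXPA18, a root hair expansin, was 73.7 and 158 at 0 h and 24.5 and 42.3 at 12 h, a log2 change of -1.36 ± 0.32 (SE, adjusted p = 0.00237), which was -0.89 with an adjusted p of 0.0734 without replicate 2 of 0 h. Of 6 XTH genes, which cut and rejoin xyloglucan, 3 were called lower. XTH18 had 178 and 155 at 0 h, 283 and 384 at 3 h and 71.4 and 63.1 at 12 h, a log2 change of -1.13 ± 0.23 (SE, adjusted p = 0.00084), against -0.23 and -0.33 with the compounds. WES1, a GH3 enzyme that conjugates auxin, fell from 1479 and 1489 to 779 and 737, a log2 change of -0.96 ± 0.12 (SE, adjusted p = 4.6e-06), against -0.38 and -0.29, and the 3 other auxin genes were not called.

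All 3 measured members of the sugar starvation list, out of 20 listed, were called lower, where 15.2% of all probe sets were. They belong to the breakdown of branched-chain amino acids, which is known to be induced when sugar is short. MCCA, a subunit of methylcrotonyl-CoA carboxylase, fell from 5989.8 and 5400.2 to 3193 and 3055, a log2 change of -0.86 ± 0.12 (SE, adjusted p = 1.3e-05), against -0.21 and -0.27 with the compounds. IVD, isovaleryl-CoA dehydrogenase, fell from 3711 and 3769 to 1906 and 2319, a log2 change of -0.83 ± 0.13 (SE, adjusted p = 7.8e-05), against -0.24 and -0.52. MCCB, the other subunit, had a change of -0.38 ± 0.13 (SE), which lost its call without any 1 of the 4 arrays, at adjusted p of 0.136, 0.0591, 0.146 and 0.0643. In the wider list of 8 branched-chain genes 4 were called lower, ETFQO among them, and 1 higher, where 15.2% and 19.9% of all probe sets were. The higher one, ETFBETA, was not called without replicate 2 of 0 h or of 12 h. Of 10 autophagy genes of the ATG8 group and its partner ATG3, 2 were called higher and 1 lower, where 19.9% and 15.2% of all probe sets were. The higher count was 1 without replicate 2 of 0 h or either replicate of 12 h and under quantile normalization. ATG8D rose from 270.0 and 348 to 719 and 813 and ATG8F fell from 6568 and 6756 to 3491 and 3633, with log2 changes of 1.28 and -0.90.

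In the abscisic acid and cold list 1 of 4 genes was called, lower, where 35.1% of all probe sets were called. Without replicate 1 of 0 h 2 were lower, and without replicate 2 of 0 h 1 was higher and 1 lower. LEA4-5, a late embryogenesis abundant protein, was 163 and 241 at 0 h and 54.7 and 68.4 at 12 h, a log2 change of -1.47 ± 0.27 (SE, adjusted p = 0.00027), with 58.3 and 34.5 at 3 h. The 12 h arrays with 7606596 and 5929745 differed from 0 h by -0.03 and -1.68. LTI30, COR47 and COR15B were not called, with changes of -0.50, 0.30 and 0.74. The thionin genes AT1G66100 and THI2.2, small antimicrobial proteins, had signals of 1014 and 802 and of 1932 and 2263 at 0 h and of 108 and 81.7 and 242 and 266 at 12 h, with log2 changes of -3.06 and -2.97. BCAT4, an aminotransferase of glucosinolate synthesis, fell from 132 and 130.0 to 40 and 36.1, by 1.44 on the log2 scale.

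Among enzyme families, the UGT glycosyltransferases, which attach sugars to small molecules, had 13 of 31 genes called higher and 6 lower, where 19.9% and 15.2% of all probe sets were. When 1 of the 4 arrays was left out the higher count lay between 9 and 11 and the lower count was 2 or 3, and 9 were higher and 7 lower under quantile normalization or median centring. UGT85A4 rose from 144 and 211 to 390.1 and 361, a log2 change of 1.04 ± 0.21 (SE, adjusted p = 0.00078). Of 14 serine carboxypeptidase-like genes 4 were called higher and 1 lower, and SCPL49 went from 824 and 663 to 2477 and 2180.0, a log2 change of 1.63 ± 0.15 (SE, adjusted p = 9.6e-08). Of 11 beta-glucosidases 3 were called higher and 4 lower, 2 of them without replicate 2 of 0 h or of 12 h. BGLU44 rose from 899 and 945 to 2613 and 2609.9 and BGLU40 fell from 387 and 419.9 to 112 and 144, with log2 changes of 1.49 and -1.55. In the cytochrome P450 family listed here 1 of 12 was called lower and none higher, with 2 lower without replicate 1 of 0 h and 3 under quantile normalization. In the glutathione transferases 1 of 10 was called higher and 1 lower, and none was higher without replicate 1 of 0 h or replicate 2 of 12 h or under either rescaling, which gave 2 lower. The plot of gene groups sets these lists side by side.

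**Figure D4:**
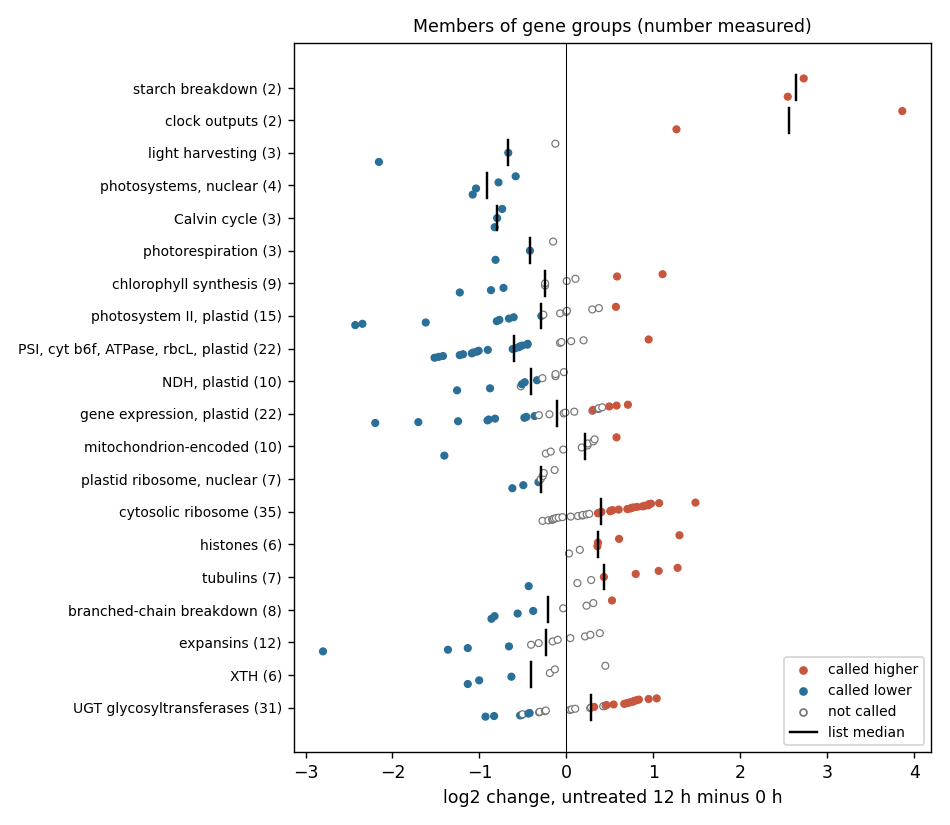
Log2 change from 0 h to 12 h of each measured member of 20 gene groups in untreated seedlings, with the number measured after each name. Red points were called higher, blue points were called lower, open points were not called, and the black bar is the median, from 2.64 for the starch breakdown genes to -0.91 for the nuclear photosystem genes.

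The largest named changes were read from 1993 probe sets with 1 gene, separate arrays and a signal above the middle of the table in the higher group. AT4G34950, a transporter of the major facilitator superfamily, rose from 80.7 and 94.1 at 0 h through 601 and 509.9 at 3 h to 3536 and 2981 at 12 h, a log2 change of 4.98 ± 0.16 (SE, adjusted p = 3.6e-14). AT4G16146, related to cAMP-regulated phosphoprotein 19, rose from 31.9 and 37.8 to 851 and 944, and AT5G62360, in the family of pectin methylesterase inhibitors, rose from 30 and 56.8 to 756 and 589.8. Their log2 changes were 4.17 and 3.56. AT2G16660, a second transporter of the major facilitator superfamily, rose by 2.15. AT5G51440, a small heat shock protein of the HSP20 family, rose from 89 and 63.5 to 571 and 454, AT1G56300, with a DnaJ domain, rose from 186 and 177 to 999 and 1173, and AT2G21130, a cyclophilin, rose from 225 and 197 to 1171 and 1057. AT1G56300 was already at 849 and 824 at 3 h. AT3G62550, in the universal stress protein family, rose by 2.09 and AT5G39410, related to saccharopine dehydrogenase, by 2.12. AT2G43550, a knottin-like protein, rose by 2.65, and AT3G52170 and AT5G53880 rose by 2.13 and 2.11. The 15 largest rises had log2 changes against 0 h from 1.299 to 4.83 with 7606596 and from 1.26 to 4.68 with 5929745, AT5G53880 the lowest and AT4G34950 the highest.

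Among the falls, AT1G55960, with a START lipid-binding domain, went from 4987 and 4874 at 0 h through 2085 and 2005 at 3 h to 352 and 400.0 at 12 h, a log2 change of -3.66 ± 0.12 (SE, adjusted p = 3.6e-14). AT2G41250, a HAD-family hydrolase, took a like course, from 3988 and 3716 through 1509 and 1769 to 349.6 and 378. AT5G35970, a helicase-related protein, was still 3594 and 4015 at 3 h and 389.9 and 385 at 12 h, after 4386 and 3784 at 0 h. AT4G19820, in the chitinase-related glycosyl hydrolase family 18, had a log2 change of -3.17, AT3G54510, in the ERD4 family of membrane proteins, one of -3.27, and AT1G76110, with HMG and ARID domains, one of -2.76. AT3G53980, in the lipid-transfer family, had a log2 change of -2.73 and AT3G28220, in the TRAF-like family, one of -2.59. AT2G15020, AT5G16030 and AT5G59080 had log2 changes of -2.75, -2.62 and -2.53. The 15 largest falls had changes against 0 h from -3.44 to -2.01 with 7606596 and from -3.59 to -1.89 with 5929745. The plot of largest changes shows all 30 of them with their 3 h values.

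**Figure D5:**
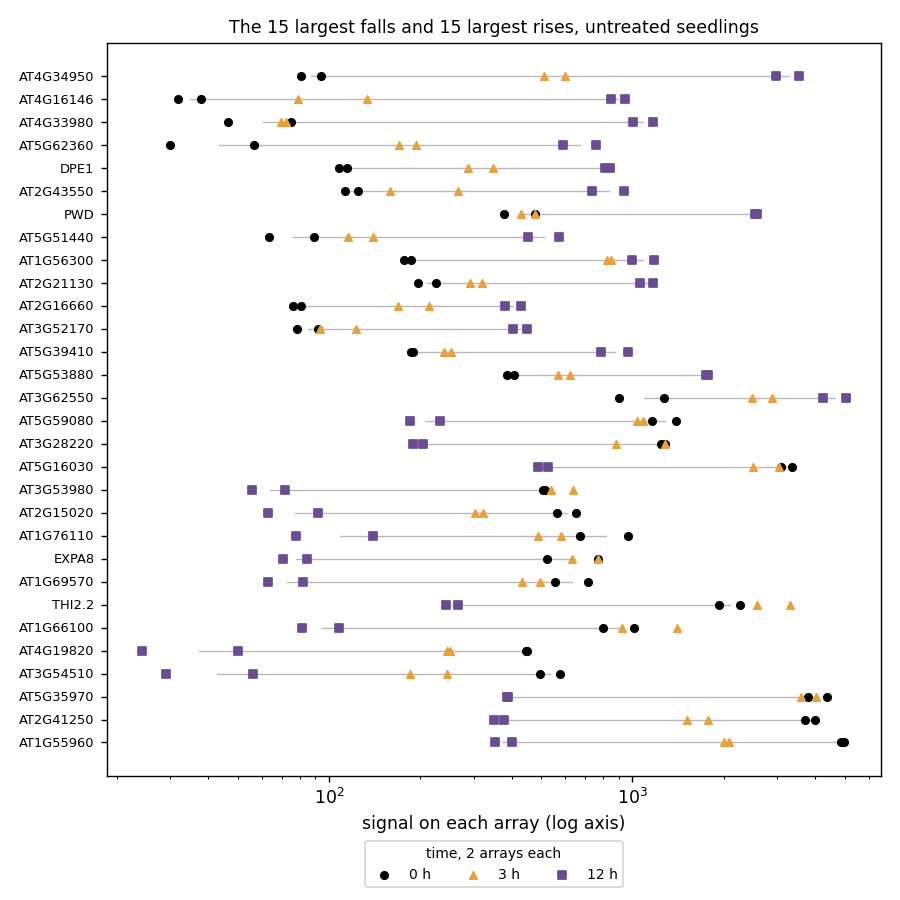
Signal on each array (log axis) of the 15 largest rises and 15 largest falls in untreated seedlings, with 0 h as black circles, 3 h as orange triangles and 12 h as purple squares, 2 arrays each. A grey line joins the means at 0 h and 12 h, and in each gene the 0 h and 12 h points are apart.

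Many probe sets have no gene in the annotation used here, 2533 of the 5586 called. Under the same limits on arrays and signal, the largest fall of these was from 16886 and 16642 at 0 h to 181 and 133 at 12 h, a log2 change of -6.62 ± 0.14 (SE), and the largest rise was from 262 and 265 to 8967 and 9666, a log2 change of 5.06 ± 0.14 (SE). Both are larger than the change of any named gene in that direction.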

How the data were processed

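Signals of 14 ATH1 arrays were analysed as deposited: linear intensity values that the authors made with MAS5, per the submitters' processing notes, which give no version. Each array's mean after trimming 2% of the probe sets at both ends was 500.05, so every array carries one total scale, and global shifts are removed. The number of arrays, 2 a group, limits the precision.

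From the deposited table, 64 control probe sets were left out and the 15922 of 22746 whose mean over all arrays reached the 30th percentile, 42.3, were kept. limma 3.58.1 in R 4.3.3 fitted log2(signal + 16) with a mean for each of 7 groups and an intensity-trended variance (7 residual and 11.4 prior degrees of freedom). The offset understates changes of dim genes. Probe sets were named from the platform annotation where it gave 1 gene (13513 probe sets), with loci from RefSeq TAIR10.1; 503 had several genes and 8730 none. A gene with several probe sets was represented by the brightest. Of 38 pathway lists 28 had a measured member; 18 lists and families were added later.

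Named genes were the 15 largest rises and 15 largest falls among called, single-gene probe sets whose arrays did not overlap and whose higher group mean reached 358, up to 5 called members of each pathway list by adjusted p, and all measured clock genes; other members of families were named after their values were seen. The comparison, the lists and their members were chosen with earlier results of these data known. The fit was tested on simulated data. Replicate numbers came from the titles: over 21 pairs of groups the correlation of same-numbered deviations ran from -0.20 to 0.12, above 0.1 in 1 pair, so the numbers were not taken as pairs.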

Additional observations from a re-analysis of the deposited data

Results flagged for a closer look

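The change between 3 h and 12 h was tested for a difference between untreated and compound-treated seedlings with an interaction term in limma, over all 15922 probe sets for each compound, where 21 passed for 7606596 and 18 for 5929745. Of the 83 named genes, none passed against 7606596 and 2 passed against 5929745, AT4G34950 and EXPA8. These were among the largest changes from 0 h to 12 h, and the untreated 12 h arrays that picked them also enter this test. AT4G34950, the transporter with the largest rise, rose by 1.28 ± 0.22 (SE) log2 units more from 3 h to 12 h in untreated than in 5929745-treated seedlings (adjusted p = 0.0261), with changes of 2.52 and 1.24. For EXPA8, an expansin, the untreated minus 5929745 difference was -1.49 ± 0.26 (SE) log2 units (adjusted p = 0.0259), with changes of -2.93 and -1.45. The 5929745 arrays and the untreated 3 h and 12 h arrays differ in poly-A spike signal, whose part was not tested. Groups of 2 arrays are too small for a search for single outlying arrays.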

How the results depend on the processing

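The count of called probe sets stayed within 1.5 times the 5586 reported under all 15 alternatives tried: 5535 and 5644 with offsets of 1 and 64, 5152 without the filter, 4906 with a filter at the 50th percentile, 5217 without the variance trend, 5591 with robust variances, 5518 after quantile normalization, 5597 after median centring, 5857 from the 4 arrays alone and 5581 from the 6 untreated arrays. Leaving out 1 of the 4 arrays gave between 3996 and 4382. With the replicate number as a block in the fit, 5553 were called, and no named gene lost its call; the shared numbers are not evidence of pairing. Of the 81 called named genes, 5 lost their call under quantile normalization, 4 without the variance trend, 1 without the filter, and 3 to 7 when 1 array was left out; the filter at the 50th percentile kept the 77 it tested. Among the genes called lower, quantile normalization turned 5 changes of bright plastid genes to positive values, none of them then called. These were ndhI to 0.12, atpE to 0.043, atpB to 0.15, rps4 to 0.054 and psbF to 0.20. Plastid genes that were not called before are left out of this count, and more of them turned. The cause was not tested. Dim probe sets are limited by signal near background and by the offset.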
